A study of Homo sapiens with 9 samples.

Results

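The human genome holds genes that descend from the envelope gene of ancient retroviruses, and 6 of them are described here by the DNA:RNA hybrids called over them in SH-SY5Y cells, an established human neuroblastoma line. They are ERVH48-1, ERVW-1, ERVFRD-1, ERV3-1, ERVMER34-1 and ERVK3-1, taken by name from 19970 coding genes on chromosomes 1 to 22 and X. ERVH48-1 was chosen by its measured covered length, which differed between shTDP43 and shNC in the untreated libraries, and the others were added for their shared origin. Each gene was read over its RefSeq GRCh38 span plus 1 kb on each side, together with the next 50 kb on either side.

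The cells carried a stably integrated short hairpin RNA delivered by lentivirus. In the shTDP43 group (genotype TDP-43 knockdown) the hairpin was directed against TDP-43, the nucleic acid-binding protein that TARDBP encodes, and in the shNC group (genotype control) it was a negative control. Both groups went through the same puromycin selection, at 2 µg/mL for 2 weeks and then 1 µg/mL. Each group had 3 libraries without RNase H and 1 library treated for 6 h with RNase H, an enzyme that degrades the RNA strand of a hybrid. Hybrids were measured by DRIP-seq, in which digested nucleic acids are pulled down with the antibody S9.6 and sequenced, and the deposited data are lists of called peaks. The labels do not say whether the cells were clones or pools, or whether replicates came from separate cultures, so any p-value measures only the spread between these libraries.

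The untreated lists held 57277 to 70120 peaks in shTDP43 and 69542 to 73456 in shNC, and the treated lists held 8916 peaks in shTDP43 and 15580 in shNC. The lowest background pileup, a gauge of depth recovered from the lists, ran from 1.05 to 1.94 in untreated shTDP43 libraries and from 1.62 to 2.01 in untreated shNC libraries. It was lowest in shTDP43 replicate 1, whose peaks covered 91.6 Mb, and it was 0.99 and 0.94 in the treated shTDP43 and shNC libraries. TARDBP itself was covered over 8.97 ± 1.87 kb in shTDP43 and 12.4 ± 1.98 kb in shNC (SD, n = 3 each; limma, adjusted p = 0.443), which checks neither its transcript nor its protein. Of 10 adrenergic neuroblastoma marker genes, 9 carried a peak in all 6 untreated libraries and TH in none. Of 10 mesenchymal neuroblastoma marker genes, 3 carried a peak in all 6 and 4 in none. The share of all genes with a peak in all 6 was not computed, so no cell state is read from these counts.

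An R-loop forms when RNA pairs with the DNA strand it was copied from and leaves the other strand unpaired. Most retroviral envelope genes in the human genome are broken, and a few kept an open reading frame. Those in use are best known from the placenta. ERVW-1 encodes syncytin-1 and ERVFRD-1 encodes syncytin-2, which fuse trophoblast cells. ERVH48-1 encodes suppressyn, a secreted protein that occupies the syncytin-1 receptor and blocks fusion. ERV3-1 and ERVMER34-1 encode envelope proteins made outside the placenta too, and ERVK3-1 is named as a member of endogenous retrovirus group K3.

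The genes fell into 2 sets by coverage. ERV3-1, ERVH48-1 and ERVK3-1 carried peaks in all 6 untreated libraries, and they were the 3 members that passed the filter of a mean of at least 500 bp. ERVFRD-1 carried peaks in 2 libraries, ERVW-1 in 1 and ERVMER34-1 in none, and these 3 were not tested. Covered length was computed for each library as the bases of a gene window that lay under its peaks. It measures extent and not signal, and in a bulk of cells it cannot tell more cells with a hybrid from more hybrid in each cell.

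**Figure D1:**
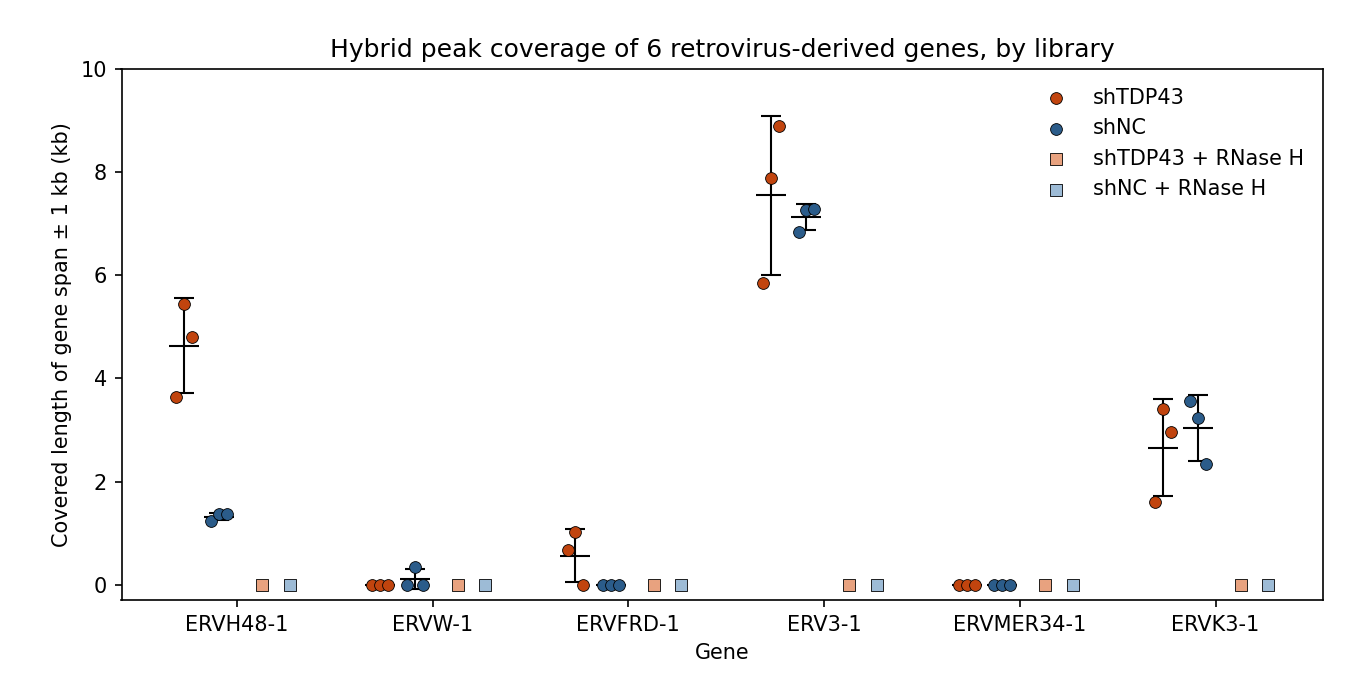
Covered length (kb) of the windows of the 6 genes, with 1 point per library, bars for the mean and SD of 3 untreated libraries, and squares for the RNase H-treated library of each genotype. ERVH48-1, which was chosen by this difference, lies at 3.63 to 5.45 kb in untreated shTDP43 and 1.24 to 1.36 kb in untreated shNC. Every square lies at 0.

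ERVH48-1 lies on chromosome 21 from 42916803 to 42925630. Its window was covered over 3633, 5448 and 4812 bp in shTDP43 replicates 1 to 3, against 1244, 1365 and 1364 bp in shNC replicates 1 to 3. The groups did not overlap, but the share of all tested genes whose groups do not overlap was not computed. Replicate 1 of shTDP43, the shallowest untreated library, was the lowest of its group. The part of depth in these values was not tested. Means were 4.63 ± 0.92 kb in shTDP43 and 1.32 ± 0.07 kb in shNC (SD, n = 3 each). The log2 difference, on lengths scaled to the library total with 100 bp added, was 1.90 ± 0.20 (SE). Because this difference is what chose the gene, it is given without a test.

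The difference lay inside the gene. Within the span alone, 3044, 4859 and 4223 bp were covered in shTDP43, against 462, 776 and 775 bp in shNC. The 1 kb flank on the lower-coordinate side held 589 bp in each shTDP43 library, against 782, 589 and 589 bp in shNC, and the flank on the other side held none. Those flank bases belong to a broad peak that began inside the neighbouring gene NDUFV3 in all 6 untreated libraries. It ended at position 42916391 in 5 of the 6, short of the lower-coordinate end of ERVH48-1. With the flanks left out the log2 difference was 2.61 ± 0.29 (SE), and with 5 kb on each side it was 0.85 ± 0.12.

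Inside the gene, the peaks of the shTDP43 libraries lay between 42918259 and 42923412. Position by position, 1905 bp of the window lay under a peak in all 3 shTDP43 libraries and in no shNC library. Another 1466 bp lay under a peak in 2 shTDP43 libraries and in no shNC library. In the other direction, 611 bp lay under a peak in 1 shNC library and no shTDP43 library, and no base did so in 2 or 3 shNC libraries. The last 3218 bp of the window, from 42923413 to 42926630, held no peak in any library. All 3 shTDP43 libraries ended their last peak at the same base, 42923412. No sequence was at hand to look for a site of the digestion enzymes there. An end of hybrid and an end of a cut fragment thus cannot be told apart.

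**Figure D2:**
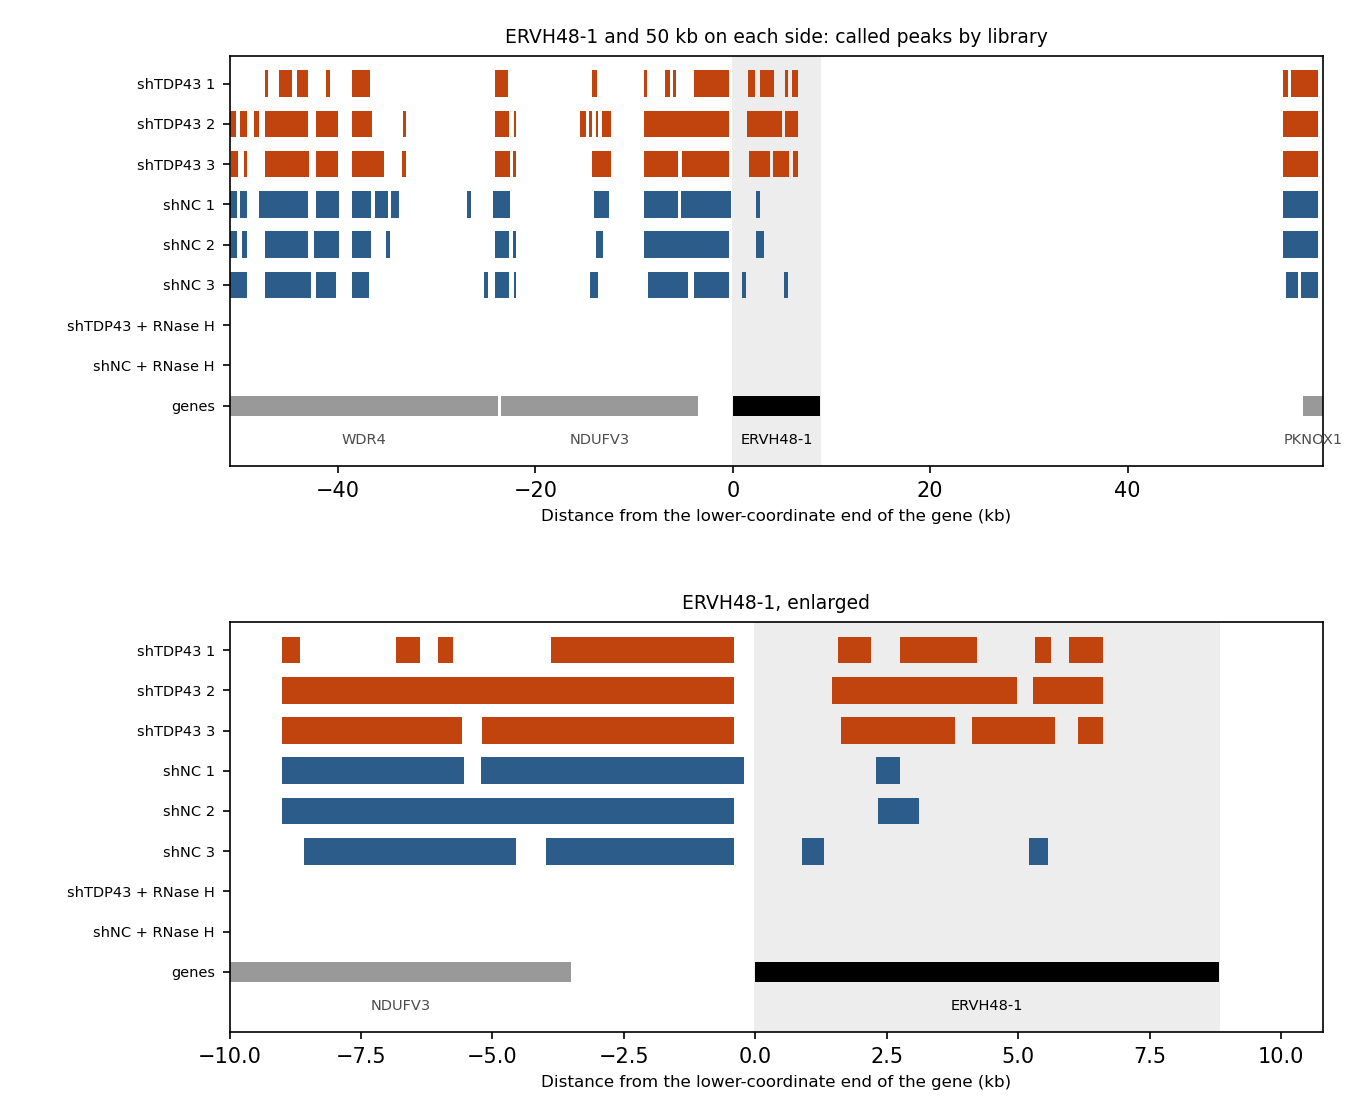
Called peaks along ERVH48-1 by library, as distance in kb from the lower-coordinate end of the gene, with the next 50 kb on each side in the upper panel and an enlargement below. Coloured bars are peaks, black and grey bars are genes, and the shaded stretch is ERVH48-1, where shTDP43 libraries had 2 to 4 peaks each and shNC libraries 1 or 2.

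The peaks inside ERVH48-1 were weak. The 9 peaks of shTDP43 libraries had −log10 q values of 2.34 to 7.05, as the authors' peak caller gave them, and the 4 peaks of shNC libraries 1.38 to 5.45. Between 10.3% and 62.4% of the peaks of the same list were weaker in shTDP43, and between 2.4% and 47.4% in shNC. The pileup at their summits, the number of sequenced fragments stacked there, was 7 to 18 in shTDP43 and 7 to 17 in shNC. The broad peak in the flank was far stronger, with summit pileups of 21 to 51 in shTDP43 and 37 to 69 in shNC. Its summit was at 42913185, inside NDUFV3 and outside the ERVH48-1 window, in every untreated library but shTDP43 replicate 1. There it was at 42915344, also outside the window.

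Of the 6 untreated lists, 4 placed a summit at the same base of the gene, 42919562. The pileup there was 18 and 12 in shTDP43 replicates 2 and 3, over backgrounds of 3.20 and 3.74. It was 12 and 17 in shNC replicates 1 and 2, over backgrounds of 3.79 and 3.69. Among these 4 libraries the summit pileups of the genotypes overlapped. The peaks around the base were 3530 and 2163 bp wide in shTDP43 and 462 and 776 bp wide in shNC. In shTDP43 replicate 1 a peak also covered the base, with its summit at 42919962 and a pileup of 9. No peak covered it in shNC replicate 3, so its pileup there is not known.

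The threshold for a peak changed this picture. With peaks of −log10 q at least 5, the ERVH48-1 window was covered over 589, 4119 and 2649 bp in shTDP43, against 782, 1365 and 589 bp in shNC, and the groups overlapped. At a −log10 q of at least 10 only the flank peak was left, with 589 bp in each shTDP43 library, against 782, 589 and 589 bp in shNC. With equal numbers of peaks per list the values were 3633, 5448 and 2649 bp in shTDP43, against 782, 1365 and 589 bp in shNC. The groups again stood apart, and the share of all tested genes that do so was not computed here either. Without scaling to the library total the log2 difference was 1.71 ± 0.16 (SE).

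**Figure D3:**
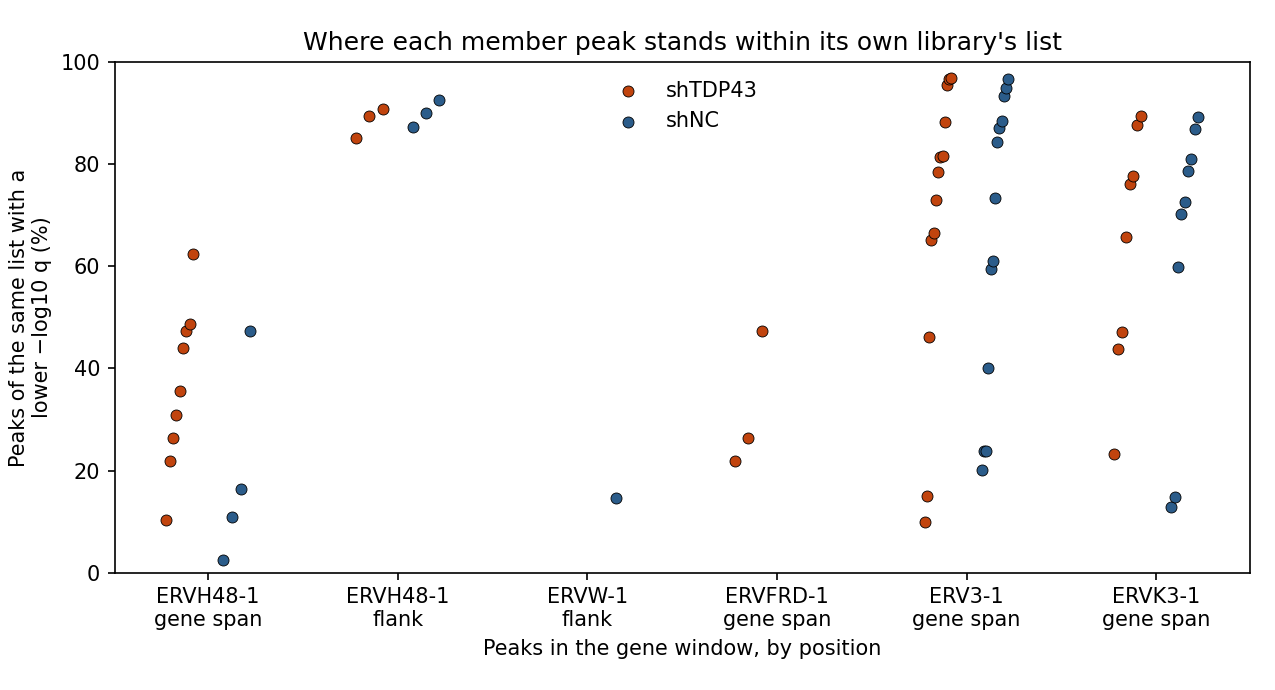
Share (%) of the peaks of the same library's list that have a lower −log10 q than each peak in a member window, with 1 point per peak, shTDP43 left and shNC right. Peaks inside ERVH48-1 stand at 2.4% to 62.4%, and the strongest ERV3-1 peaks stand above 93%. The ERVH48-1 flank peak reaches into NDUFV3 and has its summit outside the window.

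In the fit over all genes, 118 of 12808 tested genes (0.921%) were called between the genotypes at an adjusted p under 0.05, 22 higher (0.172%) and 96 lower (0.75%) in shTDP43. Of the 3 tested members, ERVH48-1 was among the calls, and that call ended without scaling and with peaks of −log10 q at least 5 or at least 10. Since the contrast chose the set, nothing is read from that count.

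**Figure D4:**
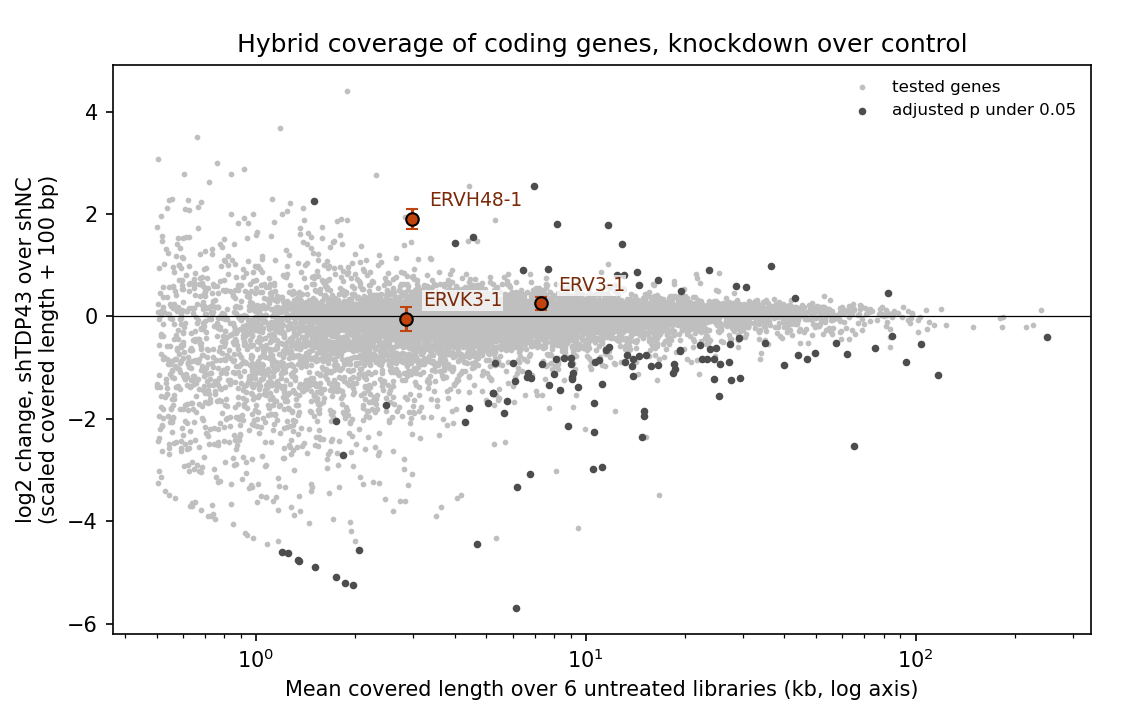
The log2 difference in scaled covered length, shTDP43 over shNC, against the mean covered length over 6 untreated libraries (kb, log axis) for 12808 tested genes, with genes at an adjusted p under 0.05 in dark grey and the 3 tested members with their SE. ERVH48-1 stands at 1.90, ERV3-1 at 0.25 and ERVK3-1 at −0.05.

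Around ERVH48-1 the covered lengths of the genotypes overlapped. In the 50 kb on the lower-coordinate side, 10835, 22841 and 22730 bp were covered in shTDP43 replicates 1 to 3, against 23939, 20735 and 20081 bp in shNC. Replicate 1 of shTDP43 had the shortest cover there, and it was also the shallowest untreated library. In the 50 kb on the other side, 3.47 ± 0.18 kb were covered in shTDP43 and 3.33 ± 0.41 kb in shNC (SD, n = 3 each).

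The nearest gene, NDUFV3, ends 3.50 kb away and encodes a subunit of mitochondrial complex I. RefSeq lists NDUFV3-AS1 as an alias of ERVH48-1, which names it as antisense to NDUFV3, and the peak lists carry no strand. NDUFV3 was covered over 8.20 ± 3.31 kb in shTDP43 and 8.75 ± 0.68 kb in shNC (SD, n = 3 each), with a log2 difference of 0.00 ± 0.19 (SE; limma, adjusted p = 0.991). Its promoter window lay wholly under a peak in all 6 untreated libraries. WDR4, which encodes a subunit of a tRNA methyltransferase, had a log2 difference of 0.01 ± 0.07 (SE; limma, adjusted p = 0.926). The next lncRNA genes on the other side, LOC124905022 and LOC124905023, and the miRNA gene MIR5692B had no peak in any library.

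ERV3-1 lies on chromosome 7 from 64990356 to 65006687 and had the longest covered length of the 6 genes. It was covered over 5859, 7895 and 8891 bp in shTDP43 replicates 1 to 3, against 6845, 7259 and 7280 bp in shNC. The shTDP43 libraries lay on both sides of the shNC range, with the shallowest library lowest. Means were 7.55 ± 1.55 kb in shTDP43 and 7.13 ± 0.25 kb in shNC (SD, n = 3 each), and the log2 difference of 0.25 ± 0.12 (SE) was not called. It was 0.06 ± 0.17 without scaling and 0.09 ± 0.12 without peaks also called after RNase H. ERV3-1 itself lost no peak in the latter setting, so that shift came with the scaling to the library total.

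Most of this cover was shared by every untreated library. Of the window, 5837 bp lay under a peak in all 6. The largest part was a peak from 64995920 to 65000562 that all 6 shared. Its summit pileup was 44, 80 and 85 in shTDP43 and 88, 72 and 50 in shNC, and it was stronger than 95.6% to 96.8% of the peaks of the shTDP43 lists and 93.4% to 96.7% of those of the shNC lists. A second shared peak, from 65006117 to 65006963, had the same ends in all 6 libraries and spanned the gene's upstream start. Beside it, 347 bp from 65005004 to 65005350 also lay under a peak in all 6. Between these and the largest peak, peaks from 65001669 to 65003529 differed in number and position from library to library. The lower-coordinate end of the gene, up to 64994663, was bare in all libraries.

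RefSeq gives ERV3-1 a pair of start sites, and both promoter windows (250 bases before to 50 after the start, minus strand, GRCh38.p14) lay wholly under peaks in all 6 untreated libraries. They are printed here with CG dinucleotides in capitals, because each start lies in a peak that all 6 libraries share. The upstream one is chr7:65006638-65006937 and the internal one chr7:64999393-64999692.
ERV3-1 upstream: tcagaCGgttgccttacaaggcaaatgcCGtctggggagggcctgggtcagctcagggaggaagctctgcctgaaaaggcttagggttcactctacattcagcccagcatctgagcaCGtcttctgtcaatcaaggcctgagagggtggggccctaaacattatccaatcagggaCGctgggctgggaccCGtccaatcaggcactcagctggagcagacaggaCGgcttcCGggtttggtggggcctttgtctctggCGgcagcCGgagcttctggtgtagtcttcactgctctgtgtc
ERV3-1 internal: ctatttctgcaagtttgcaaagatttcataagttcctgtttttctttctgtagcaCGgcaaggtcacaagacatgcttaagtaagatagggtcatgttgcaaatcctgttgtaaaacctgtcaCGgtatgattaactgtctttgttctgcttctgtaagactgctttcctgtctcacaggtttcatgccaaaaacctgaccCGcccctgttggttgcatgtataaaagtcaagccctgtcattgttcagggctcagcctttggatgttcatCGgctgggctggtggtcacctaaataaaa
The internal window is poor in G and C, at 43.3%, above 17.5% of all promoter windows, and holds 4 CG dinucleotides. Its G-over-C skew on the minus strand is −0.02, above 42.4% of all windows. The upstream window holds 9 CG dinucleotides and has a GC content of 58.3%, above 48.8% of all windows. Its skew is 0.10 on the same strand, above 72.1% of all windows.

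The shared outer end of the upstream peak, 65006963, falls inside a recognition site of EcoRI, an enzyme used to cut the nucleic acids. The site GAATTC spans 65006959 to 65006964. The stretch around it, chr7:65006937-65006996 on the minus strand, comes from the promoter window of the readthrough gene ERV3-1-ZNF117 and is shown with the site in capitals.
EcoRI site beside ERV3-1: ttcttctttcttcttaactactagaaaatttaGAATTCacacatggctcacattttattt
In all promoter windows, 5.34% hold GAATTC, and 22.7% hold a site of any of the 5 enzymes. At this site an end of hybrid and an end of the cut fragment cannot be told apart.

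Neighbours of ERV3-1 shared its peaks only through overlap. The readthrough gene ERV3-1-ZNF117 covers the same peaks and had the same log2 difference, 0.25 ± 0.12 (SE). ZNF117, a zinc finger gene whose end overlaps ERV3-1, had no peak in any library. LOC105375330, a lncRNA gene 1.99 kb away, was covered over 4.24 ± 0.00 kb in shTDP43 and in shNC (SD, n = 3 each). In the 50 kb on the lower-coordinate side, shTDP43 replicates 1 to 3 had 1564, 2380 and 2782 bp covered. The shNC replicates had 4228, 4247 and 2872 bp there, and this difference was not tested. On the other side 4.7 ± 0.4 kb were covered in shTDP43 and 4.9 ± 0.6 kb in shNC (SD, n = 3 each).

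ERVK3-1 lies on chromosome 19 from 58305377 to 58316812. It was covered over 1605, 3412 and 2961 bp in shTDP43 replicates 1 to 3, against 3570, 3237 and 2334 bp in shNC. The ranges overlapped, and the shallow shTDP43 replicate 1 was lowest. Means were 2.66 ± 0.94 kb in shTDP43 and 3.05 ± 0.64 kb in shNC (SD, n = 3 each), and the log2 difference of −0.05 ± 0.23 (SE) was not called. Its sign depended on the setting. It was −1.71 ± 1.26 at a −log10 q of at least 10 and −0.23 ± 0.34 without scaling, but 0.09 ± 0.38 at a −log10 q of at least 5 and 0.23 ± 0.35 with equal peak numbers. It was also positive without shNC replicate 1 (0.03) or 2 (0.02) and without shTDP43 replicate 1 (0.11), and negative without each of the other 3 libraries.

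A peak at the start of ERVK3-1, from 58305071 to 58306368, had the same ends in all 6 untreated libraries. Its summit pileup was 17, 34 and 35 in shTDP43 and 46, 36 and 25 in shNC. A second peak, from 58311852, was called in 2 shTDP43 libraries and in all 3 shNC libraries, and was missing from shTDP43 replicate 1. Farther along, 215 bp from 58315655 to 58315869 lay under a peak in all 3 shTDP43 libraries and in 1 shNC library.

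**Figure D5:**
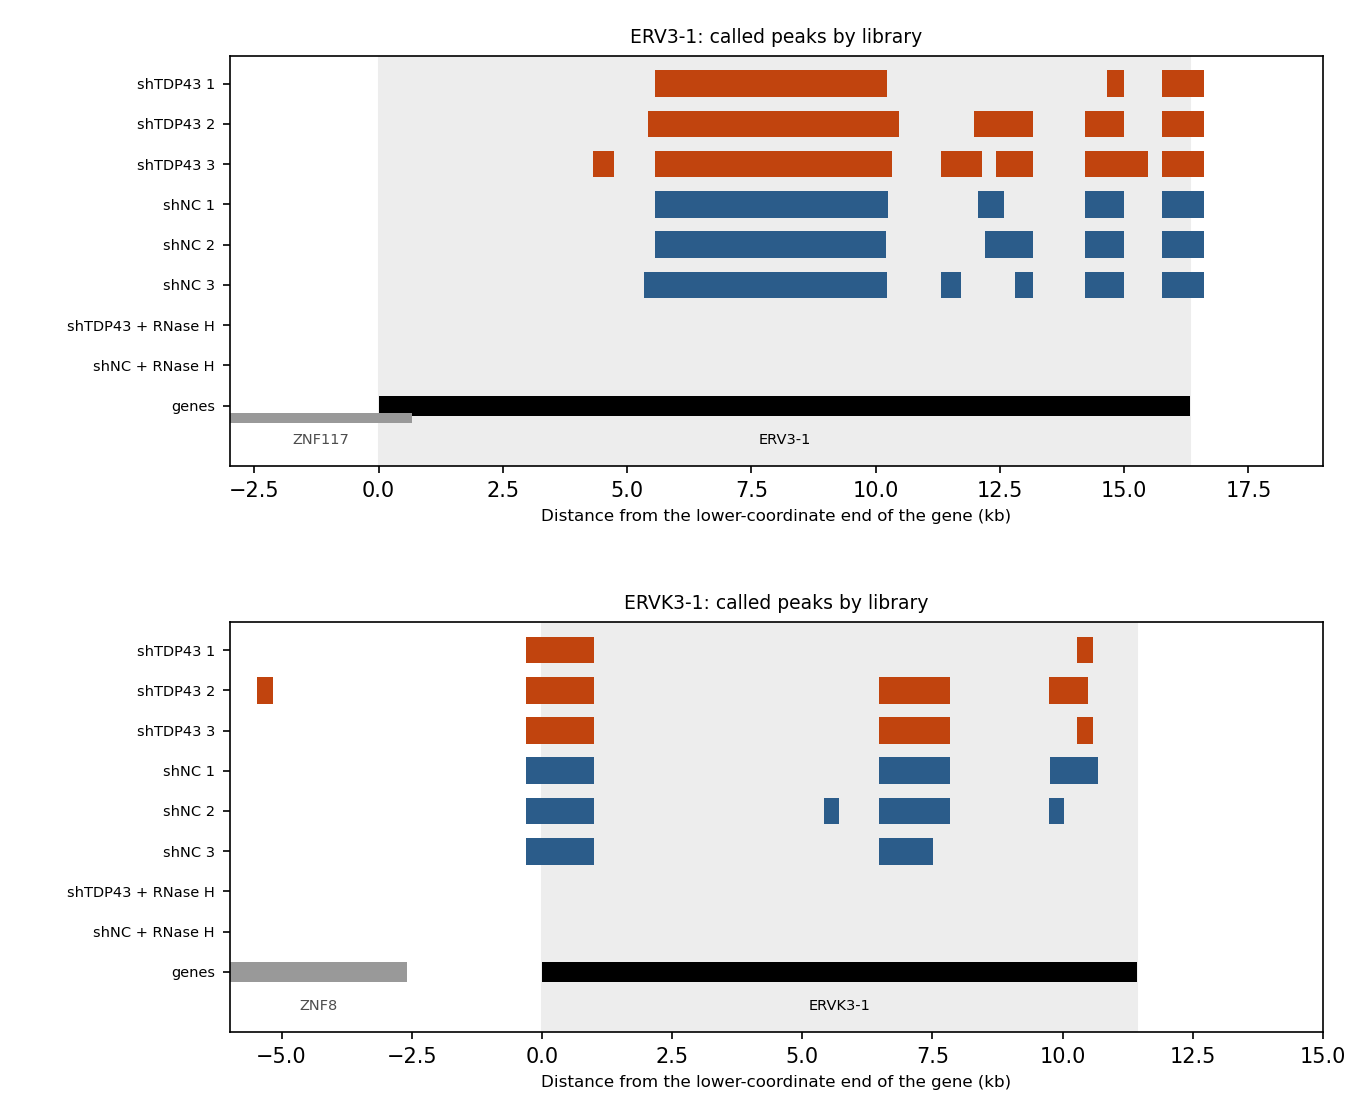
Called peaks along ERV3-1 (upper) and ERVK3-1 (lower) by library, as distance in kb from the lower-coordinate end of each gene. Coloured bars are peaks, black and grey bars are genes, and the peak at the start of ERVK3-1 and the outermost ERV3-1 peak have identical ends in all 6 untreated libraries.

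ERVK3-1 and ERVMER34-1 have promoters rich in CG dinucleotides and differed in their peaks. The windows are printed with CG in capitals to set them side by side. That of ERVK3-1 is chr19:58305127-58305426 on the plus strand and that of ERVMER34-1 is chr4:52751376-52751675 on the minus strand, both from RefSeq, GRCh38.p14.
ERVK3-1: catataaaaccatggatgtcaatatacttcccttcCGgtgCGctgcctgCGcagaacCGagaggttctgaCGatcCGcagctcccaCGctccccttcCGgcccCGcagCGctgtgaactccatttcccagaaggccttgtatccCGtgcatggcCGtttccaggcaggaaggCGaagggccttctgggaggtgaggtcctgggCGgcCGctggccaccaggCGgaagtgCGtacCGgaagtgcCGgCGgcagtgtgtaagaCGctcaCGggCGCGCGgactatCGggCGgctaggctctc
ERVMER34-1: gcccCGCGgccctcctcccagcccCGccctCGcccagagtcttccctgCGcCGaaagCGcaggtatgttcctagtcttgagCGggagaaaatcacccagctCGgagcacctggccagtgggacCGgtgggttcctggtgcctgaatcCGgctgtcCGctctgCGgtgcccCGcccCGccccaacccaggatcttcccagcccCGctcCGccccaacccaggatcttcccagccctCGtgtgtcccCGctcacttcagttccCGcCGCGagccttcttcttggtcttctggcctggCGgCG
The ERVK3-1 window holds 27 CG dinucleotides at a GC content of 63.7% and lay wholly under a peak in all 6 untreated libraries. The ERVMER34-1 window holds 24 at a GC content of 68.7% and lay under no peak in any library. Its bases on the minus strand are richer in C than in G, with a skew of −0.23, above 5.1% of all windows, against 0.01 and 48.0% for ERVK3-1. Among all promoter windows, 23.3% lay wholly under a peak in all 6 untreated libraries. Among 8207 windows with a GC content at or above that of ERVMER34-1, 22.5% had no base under a peak in any untreated library.

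The neighbourhood of ERVK3-1 was widely covered. In the 50 kb on the higher-coordinate side, 25.9 ± 2.66 kb lay under peaks in shTDP43 and 25.4 ± 0.53 kb in shNC (SD, n = 3 each). In the 50 kb on the other side the values were 10.5 ± 2.14 kb in shTDP43 and 8.25 ± 2.48 kb in shNC (SD, n = 3 each). That side holds ZNF8, a zinc finger gene 2.58 kb away, with 10.1 ± 1.77 kb in shTDP43 and 7.72 ± 1.98 kb in shNC (SD, n = 3 each) and a log2 difference of 0.60 ± 0.16 (SE; limma, adjusted p = 0.173). ZSCAN22, also a zinc finger gene, had a log2 difference of 0.19 ± 0.10 (SE; limma, adjusted p = 0.527). The readthrough transcript ZNF8-ERVK3-1 and the lncRNA LOC105372480 overlap ERVK3-1 and share its peaks.

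ERVMER34-1, on chromosome 4 from 52742553 to 52751425, had no peak in its window in any of the 8 libraries. No peak was called in the next 50 kb on the higher-coordinate side either. On the other side 6.98 ± 0.20 kb were covered in shTDP43 and 6.73 ± 0.33 kb in shNC (SD, n = 3 each). Much of that was DANCR, a lncRNA and snoRNA host gene 21.9 kb away, with 5.96 ± 0.17 kb in shTDP43 and 5.86 ± 0.00 kb in shNC (SD, n = 3 each). SNORA26 and MIR4449, which lie in DANCR, sat under the same cover.

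ERVW-1, the syncytin-1 gene, lies on chromosome 7 from 92468380 to 92477946, inside the span of GATAD1. No peak touched its span in any library. Its window held 338 bp in shNC replicate 2, from a flank peak with a summit pileup of 11, and nothing in the shTDP43 libraries or the other shNC libraries. Its promoter window in RefSeq, with 5 CG dinucleotides and a GC content of 46.0%, lay under no peak. GATAD1, a zinc finger gene, was covered over 8.29 ± 1.51 kb in shTDP43 and 9.08 ± 1.00 kb in shNC (SD, n = 3 each; log2 difference 0.05 ± 0.17 SE; limma, adjusted p = 0.879).

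ERVFRD-1, the syncytin-2 gene, lies on chromosome 6 from 11102489 to 11111725. Its window was covered over 676, 1018 and 0 bp in shTDP43 replicates 1 to 3, against 0 bp in all 3 shNC libraries. These were 3 peaks with summit pileups of 7 to 9, and 28 bp were shared by the 2 shTDP43 libraries that had them. None of them had a −log10 q of 5 or more. SMIM13, whose span overlaps ERVFRD-1, had 2.04 ± 1.54 kb in shTDP43 and 2.13 ± 1.31 kb in shNC (SD, n = 3 each; limma, adjusted p = 0.913).

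No member had a peak after RNase H. All 6 windows held 0 bp in the treated shTDP43 library and 0 bp in the treated shNC library. In the untreated libraries ERV3-1 held 5859 to 8891 bp in shTDP43 and 6845 to 7280 bp in shNC. In a fit over both genotypes, ERV3-1 (limma, adjusted p = 9.47e-08), ERVK3-1 (9.93e-06) and ERVH48-1 (3.46e-05) were called lower after treatment, as were 94.2% of the 12808 tested genes, where 94.3% were called in either direction. The 3 members thus went the way of nearly all genes. Genes entered this fit by their mean in the untreated libraries, so genes low there could not pass. No fold is given, since the treated value is 0 and each genotype had 1 treated library. The treated libraries also had the lowest background pileups of the 8, 0.99 in shTDP43 and 0.94 in shNC, against 1.05 to 2.01 in untreated libraries, and the part of depth in the result was not tested.

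With the strongest 8916 peaks of each of the 8 lists, ERV3-1 had 0 bp after treatment in either genotype, against 4665, 5052 and 5610 bp in untreated shTDP43 and 5535, 4643 and 4875 bp in untreated shNC (limma, adjusted p = 1.88e-08). ERVK3-1 kept its start peak in 2 untreated shTDP43 libraries and 1 untreated shNC library, and its call ended (limma, adjusted p = 0.297). ERVH48-1 kept only its flank peak, 589 bp in each untreated shTDP43 library, against 782, 589 and 0 bp in untreated shNC. That peak lies outside the gene, so no test is given. No peak inside the ERVH48-1 span was among the strongest 8916 of its list.

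Of 5 genes listed as envelope receptors and regulators, 4 carried peaks in all 6 untreated libraries, a share not computed for all genes. SLC1A5, the amino acid transporter that serves as receptor of syncytin-1 and suppressyn, was covered over 12.1, 13.1 and 12.9 kb in shTDP43, against 13.8, 13.1 and 13.4 kb in shNC. Its log2 difference was 0.11 ± 0.13 (SE; limma, adjusted p = 0.679). MFSD2A, the lipid transporter used by syncytin-2, had 8.57 ± 1.14 kb in shTDP43 and 10.0 ± 0.65 kb in shNC (SD, n = 3 each; limma, adjusted p = 0.883). SLC7A5, a transporter of large neutral amino acids, had a log2 difference of −0.04 ± 0.07 (SE; limma, adjusted p = 0.798). GCM1, the trophoblast transcription factor that drives syncytin genes, had no peak in any library. Of these 5 receptor and regulator genes, 4 were tested and none was called, beside 0.921% of all tested genes, so nothing is read from that count. Their median log2 difference was −0.04, against 0.05 over all tested genes.

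Trophoblast markers were nearly bare. Of 12 such genes, GCM1 among them, 10 had no peak in any untreated library, and none was tested. Their summed covered length was 0 kb in each shTDP43 library and 0 to 1.6 kb in shNC libraries, where TFAP2A and KRT7 had peaks in replicate 1 alone. Over all 19970 coding genes, 14101 had cover in at least 1 untreated library.

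Other genes of retroviral or retrotransposon origin ranged from bare to widely covered. Of the other 4 annotated ERV genes, ERVV-1, ERVV-2 and ERVE-5 had no peak in an untreated library. ERVK13-1, a lncRNA gene on chromosome 16, was covered over 2.16, 3.71 and 6.00 kb in shTDP43, against 5.24, 4.67 and 5.27 kb in shNC, and was outside the fit on coding genes. Of 25 genes derived from a retroelement gag or protease, 20 were tested and none was called, a count that cannot be told from the 0.921% of all tested genes. Their median log2 difference was 0.10, against 0.05 over all tested genes. RTL1, an imprinted gag-derived gene, was covered most, over 21.0 ± 2.52 kb in shTDP43 and 24.9 ± 0.40 kb in shNC (SD, n = 3 each; limma, adjusted p = 0.769). ASPRV1, a skin protease gene, had 10.79 ± 1.79 kb in shTDP43 and 10.67 ± 2.25 kb in shNC (SD, n = 3 each; limma, adjusted p = 0.591). Its RefSeq span is long, from 69932717 to 70087375 on chromosome 2, and where in it the peaks lay was not examined. RTL10 had 9.84 ± 0.84 kb in shTDP43 and 10.4 ± 0.37 kb in shNC (SD, n = 3 each; limma, adjusted p = 0.673).

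The genes whose coverage followed that of ERVH48-1 most closely were PRICKLE1, ELAPOR1, LUC7L, ZNF250 and PLPP3. They had the highest Pearson correlation of log2 scaled covered length with ERVH48-1 over the 6 untreated libraries, among 978 genes whose group means differed by at least 1 on the log2 scale. The correlations were 0.987, 0.984, 0.981, 0.979 and 0.977 in that order. All points come from the same 6 libraries and share their depth. ERVH48-1 and the 978 genes were both chosen for a gap between the genotypes, so these correlations largely restate that gap. ELAPOR1 was covered over 8213, 12836 and 14182 bp in shTDP43, against 2535, 1973 and 1973 bp in shNC. PRICKLE1, a planar cell polarity gene, was covered over 12329, 22623 and 19892 bp in shTDP43, against 6692, 7903 and 8036 bp in shNC. In both genes shTDP43 replicate 1 was the lowest of its group, and the part of depth was not tested.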

How the data were processed

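Peaks were called per library, as the peak names of the deposited lists show. MACS2 2.2.6, Bowtie2 2.4.4, SAMtools and build hg38 are listed in the submitters' processing notes, and which control the peak calls used is not given there. The authors' deposited lists give each peak a ratio (fold over local background), −log10 p and −log10 q values and a score, nearly always the whole part of 10 times −log10 q. These were used only within a list. Without read counts in the lists, count models were not applied. The 1 input library was not analysed here.

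Solving fold and p together gave whole summit pileups, within 0.001 of the printed −log10 p, for at least 99.2% of 2000 summits per library. Covered length per gene window came from merged peaks and RefSeq GRCh38.p14 spans, without exons. Log2 of scaled length plus 100 bp was fitted with limma 3.58.1 in R 4.3.3 (eBayes with trend), with Benjamini-Hochberg adjustment over 12808 of 19970 coding genes, those averaging 500 bp or more over the 6 untreated libraries. The RNase H fit used unscaled lengths of all 8 libraries with genotype as a term. Simulated log2 changes of 1 were recovered for 97% of genes in the shTDP43 against shNC design and 92.8% in the RNase H design. Unchanged genes gave 10 and 7 false calls in these designs. The simulation gave every gene the same noise and every library the same total, and it changed 200 genes. The recovered shares thus do not hold for genes whose covered length varied more between libraries, or for libraries of unequal total. Nor do they describe the RNase H data, where 94.3% of genes were called. Alternatives were no scaling, other pseudocounts, filters, windows and peak thresholds, equal peak numbers, a replicate block and leaving out each library. Members and lists were chosen with earlier results of these data known. Named genes are the 6 members, up to 5 nearest neighbours each, called genes and the 3 longest covered of each related list, and the 5 most like ERVH48-1. A neighbour of ERVW-1 is not reported here. Counts of CG dinucleotides were chosen after values were seen. Promoter sequences are from RefSeq, GRCh38.p14, which held windows for 4 of the 6 members.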

Additional observations from a re-analysis of the deposited data

How the results depend on the processing

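The 118 genes called between shTDP43 and shNC depended on the processing. The count was 20 without scaling, where the median log2 difference of all genes was −0.145, against 0.046 with it, and 1 call was higher and 19 lower. It was 231 with 1000 bp added, 33 and 32 with peaks limited to −log10 q values from 5 and from 10, 179 with equal peak numbers, and 1739 without peaks also called after RNase H, of which 1070 were higher. That last setting took from each untreated library the peaks that overlap the treated list of its own genotype. Those treated lists were unequal, with 8916 peaks in shTDP43 and 15580 in shNC. The part of this in the count was not tested. With the replicate number as a block the count was 74. Same-numbered libraries did not deviate together (correlations of −0.171, 0.062 and −0.172), so the numbers were not taken as pairs. Leaving out 1 library gave 18 to 223. The ERVH48-1 log2 difference chose the gene, so refits of the same 6 libraries do not test it. It was positive in every fit, from 0.09 to 2.61, and from 1.81 to 1.96 when a library was left out. It was 1.71 without scaling, 1.27 ± 0.63 (SE) with peaks from −log10 q 5 and 0.09 ± 0.62 with peaks from 10, and its call ended in these 3 settings. In the last, the unscaled covered length was 589 bp in each shTDP43 library, against 782, 589 and 589 bp in shNC, so the positive sign came with the scaling. The 12082 genes called after RNase H numbered 6960 of 8584 tested at equal peak numbers. The 3 tested members kept that call in the other alternatives. The peaks inside ERVH48-1 rest on summit pileups of 7 to 18, and the effect of depth on them was not tested.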

Other observations

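Some peak ends repeat to the base between libraries. Of all peak edges in the 6 untreated lists, 33.3% lie at a base that at least 2 lists share. Inside promoter windows, 496 of 506 distinct edges found in 5 or 6 lists lay at or within 3 bp of a recognition site of the 5 digestion enzymes. The share was 92.2% (461 of 500) for edges found in 2 to 4 lists and 4.99% (342 of 6856) for edges found in 1 list, and 1.13% of promoter-window bases lie that close to a site. ERV3-1 had 4 edges shared by 5 or 6 lists, ERVK3-1 had 3 and ERVH48-1 had 1, in its flank. The end at 42923412 inside ERVH48-1 was shared by 3 lists. No sequence was at hand to look for a site at these ERVH48-1 edges. Most distinct edges at the members occurred in 1 list only, 24 of 26 in the ERVH48-1 window, 20 of 27 in that of ERV3-1 and 11 of 16 in that of ERVK3-1. This comparison was made after the values were seen.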
